A study of Mus musculus with 16 samples.

Results

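The 10 genes described here, Cps1, Otc, Ass1, Asl, Arg1, Nags, Gls2, Hal, Sds and Slc25a15, encode the liver's urea cycle and enzymes that release nitrogen from amino acids. They were chosen by name, and each was read from the array probe with the highest mean over 16 arrays. All 10 were found, with 12 probes among the 60037 of the array, and all 10 probes used were well above background on 16 of 16 arrays. They are 10 of 31484 genes tested.

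The samples were livers of 16 male mice, 6 weeks old and of a mixed background of 75% C57BL/6 and 25% SV129, with 1 array a mouse. The 4 genotypes, with 4 mice each, concern CerS2, the ceramide synthase that makes ceramides with very long acyl chains: WT (wild type), H/A (taken here as histidine replaced by alanine in the catalytic part of the enzyme), Del (condition delHox) and Flox (condition delneo). The labels do not say how the Del allele was made, in which cells it is present, or how many founder lines were used, so WT and Flox are treated as the 2 control groups and H/A and Del as the 2 mutant groups. Cers2 itself was not analysed here, so the genotypes were not checked against it.

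Urea synthesis removes ammonia from the body and takes place mainly in hepatocytes near the portal vein. Ammonia enters through carbamoyl phosphate in mitochondria, is joined to ornithine there, and leaves as urea after a series of steps in the cytosol that regenerate ornithine. Enzymes that break down glutamine, histidine and serine are also most abundant in periportal hepatocytes and supply nitrogen and carbon to the cycle and to glucose synthesis.

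The sequences of the probes for the 4 genes with the clearest differences are given first, because Gls2 and Sds were each read by a pair of probes whose differences were not of the same size. They are the first 30 bases of each probe in lower case, and their position in the transcripts was not looked up.
Cps1 probe: caccttgcattctgtataccacacatatta
Gls2 probe used for the gene: gccaggacacgctgctactgctgacagcaa
Gls2 second probe: aacattgtgctcctgactcaggcattccga
Hal probe: ttactatggtttgaggagtactgggtgcct
Sds probe used for the gene: aatggccccaccctcctttacctgtgttta
Sds second probe: ctgagcatggagggatgctgtggacccgag

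Of the 10 genes, 5 had a start site in the RefSeq promoter table (GRCm38.p6): Ass1, Slc25a15, Hal, Nags and Otc. The 250 bases before the start were searched on both strands for the cAMP response element TGACGTCA and its shorter form TGACG, the C/EBP palindrome TTGCGCAA and its wider form TTGCNNAA, the HNF4 site CAAAGTCCA, the HNF1 site, the glucocorticoid response element and the TATA box TATAAA. Hal was the only one of the 5 with a match. Its window, at chr10:93488518-93488767 on the plus strand, is shown because Hal also fell in Del livers, with the wider C/EBP form at bases -150 to -143 and the reverse complement of the TATA letters at bases -28 to -23 in capitals.
Hal promoter: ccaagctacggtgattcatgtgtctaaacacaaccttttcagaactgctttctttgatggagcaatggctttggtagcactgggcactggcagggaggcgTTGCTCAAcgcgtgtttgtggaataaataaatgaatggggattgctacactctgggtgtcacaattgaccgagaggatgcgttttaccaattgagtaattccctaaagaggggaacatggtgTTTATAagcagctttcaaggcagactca
Of 32851 windows of this length in the table, 9.56% held the wider C/EBP form and 12.4% held the TATA letters. These are matches of letters and not measured binding sites.

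The arrays were examined before the genes were compared. For 10 of 16 samples the deposited column matched the scanner file listed for the sample, and for the other 6 it matched another file, with a correlation of at least 0.89 with that file and at most 0.17 with the listed one. In all 16 samples the file matched was the one at the slide and position of the label. With the listed files, 5 of 31484 genes were called in H/A against WT, 1 in Del against WT and 0 in Del against Flox (limma), and the values of the 10 genes by those files are given after the genes. H/A arrays were also brighter before scaling, with a 75th percentile of signal of 109.3 to 173.1 against 89.7 to 98.8 in WT, 86.0 to 111.6 in Flox and 91.2 to 114.8 in Del. Of the H/A arrays 3 lay on slide 1 and 1 on slide 2, of the Del arrays 1 and 3, and WT and Flox had 2 on each, so results are also given within slides.

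The genes fell into those with higher and those with lower signal in the mutant livers. Over both mutant groups against both control groups, Cps1, the enzyme that commits ammonia to the cycle, rose by 0.68 on the log2 scale. Gls2, Sds, Hal and Arg1, which act on glutamine, serine, histidine and arginine, fell, by 0.75, 0.76, 0.65 and 0.30. The other 5 genes were not called, where a call is an adjusted p under 0.05 from limma with Benjamini-Hochberg adjustment over all genes tested. In this comparison 50.4% of all genes were called, 21.2% higher and 29.2% lower, so 5 of 10 is near the background share. The median difference of the 10 genes was -0.26, against -0.14 over all genes. In whole liver, fewer cells of a type and less RNA per cell cannot be told apart.

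**Figure D1:**
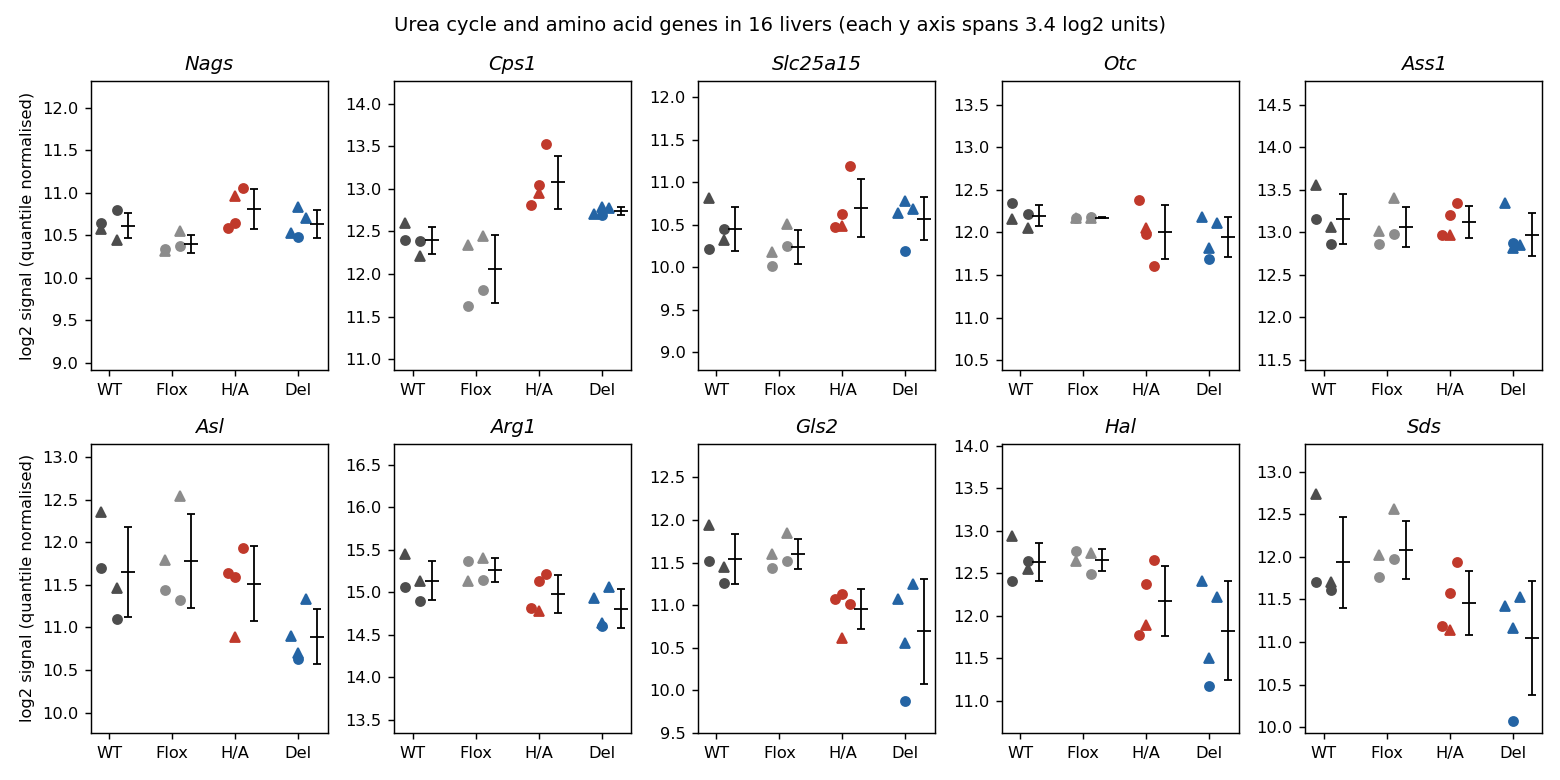
Log2 signal of the 10 genes in each of 16 livers, by genotype, with circles for slide 1, triangles for slide 2 and the group mean ± SD beside the points. Cps1 lay at 12.70 to 13.52 in the 8 mutant livers and at 11.62 to 12.59 in the 8 control livers, while Gls2 lay lower in every mutant liver than in any control liver.

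Among the mitochondrial steps, Cps1, which makes carbamoyl phosphate from ammonia, had log2 signals of 12.40, 12.38, 12.59 and 12.21 in the WT livers and 11.62, 11.81, 12.34 and 12.45 in the Flox livers. The H/A livers gave 12.81, 13.05, 13.52 and 12.95, and the Del livers gave 12.70, 12.71, 12.78 and 12.78. Every mutant liver was above every control liver, a separation upwards that 4.49% of all genes showed. The Del values were the most tightly grouped (SD 0.05, n = 4) and the Flox values the most spread (SD 0.40, n = 4), with both Flox livers of slide 1 below both of slide 2.

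Cps1 rose in H/A against WT by 0.68 (SE 0.19, 95% interval 0.29 to 1.08, 1.61-fold, limma adjusted p = 0.0316). It was the only gene of the 10 called in that comparison, in which 10.1% of all genes were called, and 9.02% of all genes lay higher in every H/A liver than in any WT liver. It rose in Del against Flox by nearly the same amount, 0.69 (SE 0.19, interval 0.29 to 1.08, adjusted p = 0.0146), where 34.8% of all genes were called and 15.9% lay higher without overlap. Against WT, Del gave 0.34 (adjusted p = 0.204), all 4 Del livers being above all 4 WT livers, as for 10.6% of all genes, and Flox gave -0.34 against WT (adjusted p = 0.802). The rise over both mutants had an adjusted p of 0.00126.

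The H/A call for Cps1 was lost without H/A replicate 2 (0.70, adjusted p = 0.0704), H/A replicate 3 (0.54, adjusted p = 0.102), WT replicate 1 (0.68, adjusted p = 0.065) or WT replicate 4 (0.62, adjusted p = 0.0991), and with only the H/A and WT arrays in the fit (adjusted p = 0.0531). The Del against Flox difference was 0.98 within slide 1 and 0.36 within slide 2, called in neither (adjusted p = 0.0827 and 0.191).

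Nags makes N-acetylglutamate, the activator that Cps1 requires. Its log2 signal ranged from 10.44 to 10.80 in WT, 10.31 to 10.55 in Flox, 10.58 to 11.05 in H/A and 10.48 to 10.84 in Del, with overlap between mutants and controls. The difference over both mutants was 0.22 (interval 0.02 to 0.42) and was not called (limma adjusted p = 0.0657). Slc25a15, the carrier that exchanges ornithine and citrulline across the inner mitochondrial membrane, gave 0.29 (interval 0.01 to 0.57, adjusted p = 0.0795), with ranges of 10.22 to 10.81 in WT, 10.02 to 10.51 in Flox, 10.47 to 11.19 in H/A and 10.19 to 10.77 in Del.

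Over the 16 livers, Pearson's r with Cps1 was 0.80 for Slc25a15 and 0.76 for Nags, and after removing group means it was 0.72 and 0.49. Several other members had a similar r with Cps1 after removing group means, 0.67 for Asl, 0.60 for Ass1 and 0.58 for Sds. It was 0.38 for Hal, 0.36 for Arg1, 0.31 for Gls2 and -0.40 for Otc. These are descriptions of 16 arrays that share 2 slides and 1 scaling. With the label-paired scanner files scaled by the 75th percentile, both genes were called over both mutants, Nags at 0.33 (adjusted p = 0.0324) and Slc25a15 at 0.41 (adjusted p = 0.0339).

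Otc joins carbamoyl phosphate to ornithine and is the last step inside the mitochondrion. Its signals lay close together in Flox, from 12.17 to 12.19, and ranged from 12.05 to 12.35 in WT, 11.61 to 12.38 in H/A and 11.69 to 12.18 in Del. Unlike Cps1 its difference over both mutants was below 0, at -0.21 (interval -0.44 to 0.02), and it was not called (limma adjusted p = 0.118).

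In the cytosol, Ass1 joins citrulline and aspartate, and it had the smallest difference of the 10 genes, -0.06 over both mutants (interval -0.32 to 0.20, limma adjusted p = 0.681). Its ranges overlapped in all groups, at 12.86 to 13.56 in WT, 12.86 to 13.40 in Flox, 12.97 to 13.35 in H/A and 12.81 to 13.35 in Del.

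Asl, which splits argininosuccinate into arginine and fumarate, gave 11.70, 11.10, 12.36 and 11.46 in WT and 11.44, 11.32, 11.80 and 12.55 in Flox. It gave 11.64, 11.59, 11.94 and 10.89 in H/A and 10.63, 10.90, 10.70 and 11.34 in Del. The control livers spread by more than 1 log2 unit, H/A lay within that spread apart from its lowest liver, and 3 of 4 Del livers were below all control livers.

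Asl fell in Del against Flox by 0.88 (SE 0.31, interval -1.53 to -0.23, 1.84-fold lower, limma adjusted p = 0.0376), although the highest Del liver, 11.34, was above the lowest Flox liver, 11.32. In H/A against WT the difference was -0.14 (interval -0.79 to 0.51, adjusted p = 0.771), and in Del against WT -0.76 (adjusted p = 0.103). The gap between H/A and Del was 0.62 (interval -0.03 to 1.27) and was not called (adjusted p = 0.654). The Del against Flox call was lost without Del replicate 1 (-0.79), Del replicate 2 (-0.89), Del replicate 3 (-0.82), Flox replicate 3 (-0.88) or Flox replicate 4 (-0.63), with adjusted p from 0.0536 to 0.113. It was also lost with the label-paired scanner files (-0.73, adjusted p = 0.0744) and without the filter on dim probes (adjusted p = 0.0627). Within slides it was -0.75 and -1.19, the second of them called (adjusted p = 0.0355).

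Arg1, the arginase that releases urea, gave 15.06, 14.90, 15.45 and 15.13 in WT and 15.37, 15.15, 15.13 and 15.40 in Flox. H/A gave 14.81, 15.13, 15.21 and 14.77, and Del gave 14.60, 14.93, 14.63 and 15.06. All Del livers were below all Flox livers, as for 17.6% of all genes, while H/A and WT overlapped.

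Arg1 fell in Del against Flox by 0.45 (SE 0.15, interval -0.78 to -0.13, 1.37-fold lower, limma adjusted p = 0.0349), and H/A against WT gave -0.15 (adjusted p = 0.492). The Del against Flox call was lost without Del replicate 1 (-0.39), Del replicate 3 (-0.40), Flox replicate 1 (-0.42) or Flox replicate 4 (-0.41), with adjusted p from 0.08 to 0.103. It was also lost with normexp correction (-0.36, adjusted p = 0.0727), array weights (-0.35, adjusted p = 0.0738), only the groups compared (adjusted p = 0.0532), and within slide 1 (-0.66, adjusted p = 0.194) and slide 2 (-0.39, adjusted p = 0.146). The call over both mutants (adjusted p = 0.0313) was lost without any of 7 livers, H/A replicates 1 (-0.28) and 4 (-0.27), WT replicate 3 (-0.25), Del replicates 1 (-0.27) and 3 (-0.28) and Flox replicates 1 (-0.29) and 4 (-0.28), and with normexp correction (-0.24, adjusted p = 0.0647).

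Gls2 is the liver glutaminase that frees ammonia from glutamine. Its signals were 11.51, 11.26, 11.94 and 11.45 in WT and 11.43, 11.52, 11.61 and 11.84 in Flox, against 11.07, 11.13, 11.01 and 10.61 in H/A and 9.87, 11.08, 10.56 and 11.25 in Del. Every mutant liver was below every control liver, a separation downwards that 1.21% of all genes showed, and by a narrow margin, 11.25 against 11.26.

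Gls2 fell in Del against Flox by 0.91 (SE 0.25, interval -1.43 to -0.38, 1.88-fold lower, limma adjusted p = 0.0145) and in Del against WT by 0.85 (adjusted p = 0.0339), a comparison in which 13.2% of all genes were called. Both Del comparisons share the Del livers. In H/A against WT its difference was -0.58 (interval -1.11 to -0.06), lower in every H/A liver than in any WT liver, as for 7.65% of all genes, but not called (adjusted p = 0.12). Over both mutants the adjusted p was 0.00419. The Del against WT call was lost without WT replicates 1 (-0.86), 3 (-0.72) or 4 (-0.88) or Del replicates 1 (-0.58) or 3 (-0.81), with adjusted p from 0.0617 to 0.106. It was also lost with the label-paired files (-0.77, adjusted p = 0.0558), without the filter (adjusted p = 0.0578), with only the groups compared (adjusted p = 0.105) and within slide 2 (-0.73, adjusted p = 0.0609).

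The second Gls2 probe was dimmer and moved further. Its mean signal was 8.14 ± 0.30 in WT, 7.96 ± 0.22 in Flox, 7.26 ± 0.39 in H/A and 6.86 ± 0.46 in Del (SD, n = 4 each). In a fit of all 37819 probes kept, it fell in H/A against WT by 0.87 (limma adjusted p = 0.0321), in Del against WT by 1.28 (adjusted p = 0.00258) and in Del against Flox by 1.10 (adjusted p = 0.00468). Both Gls2 probes were therefore lower in both mutants, and the call in H/A rested on the second.

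Hal starts histidine breakdown by removing its amino group. WT livers gave 12.41, 12.65, 12.94 and 12.55 and Flox livers 12.76, 12.49, 12.64 and 12.74. H/A livers gave 11.77, 12.37, 12.66 and 11.89 and Del livers 11.18, 12.41, 11.50 and 12.22. The 8 control livers lay between 12.41 and 12.94, while both mutant groups held 2 livers near that range and 2 livers well below it.

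Hal fell in Del against Flox by 0.83 (SE 0.25, interval -1.36 to -0.30, 1.78-fold lower, limma adjusted p = 0.0227) and in Del against WT by 0.81 (adjusted p = 0.0449). H/A against WT gave -0.47 (interval -0.999 to 0.07, adjusted p = 0.204). The Del against Flox call was lost without Del replicate 1 (-0.61, adjusted p = 0.0576), Del replicate 3 (-0.72, adjusted p = 0.0775) or Flox replicate 1 (-0.79, adjusted p = 0.0548). The Del against WT call was lost without WT replicate 1, 2, 3 or 4 (-0.89, -0.81, -0.71 and -0.84), Del replicate 1 or 3 (-0.59 and -0.70), H/A replicate 2 or Flox replicate 1, 2, 3 or 4 (-0.81 in each), with adjusted p from 0.0516 to 0.142. With the label-paired files neither was called, at -0.68 in Del against Flox (adjusted p = 0.062) and -0.79 in Del against WT (adjusted p = 0.0639), nor was either within a slide, and the Del against WT call was lost without the filter (adjusted p = 0.0741), with only the groups compared (adjusted p = 0.0975) and with array weights (-0.63, adjusted p = 0.064). Over both mutants the fall had an adjusted p of 0.00926 and stayed called without any 1 liver.

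Sds, the dehydratase that turns serine into pyruvate and ammonia, gave 11.70, 11.61, 12.74 and 11.70 in WT and 11.77, 11.97, 12.02 and 12.56 in Flox. It gave 11.18, 11.58, 11.95 and 11.14 in H/A and 10.07, 11.42, 11.16 and 11.53 in Del. All Del livers were below all WT livers, as for 7.24% of all genes, and below all Flox livers, as for 17.6%. H/A overlapped both controls. WT replicate 3 and Del replicate 1 were the extremes.

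Sds had the largest fall of the 10 genes, 1.04 in Del against Flox (SE 0.32, interval -1.72 to -0.35, 2.05-fold lower, limma adjusted p = 0.0255). Del against WT gave -0.89 (adjusted p = 0.0762) and H/A against WT gave -0.48 (interval -1.16 to 0.21, adjusted p = 0.303). With slide as a block the Del against WT fall was called, at -1.01 (adjusted p = 0.0324). The Del against Flox call was lost without Del replicate 1 (-0.71, adjusted p = 0.062), Del replicate 3 (-1.07, adjusted p = 0.0558) or Flox replicate 4 (-0.88, adjusted p = 0.0697). It was also lost with the label-paired files (-0.89, adjusted p = 0.0555) and within slide 2 (-0.92, adjusted p = 0.064).

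The second Sds probe, named for a predicted transcript, was dim and did not move in the same way. Its mean was 5.09 ± 0.67 in WT, 5.68 ± 0.30 in Flox, 4.80 ± 1.03 in H/A and 5.15 ± 0.62 in Del (SD, n = 4 each). It gave -0.54 in Del against Flox (interval -1.49 to 0.42, limma adjusted p = 0.351) and 0.05 in Del against WT (interval -0.90 to 1.01). With both probes averaged, the Del against Flox difference of Sds became -0.79 and was no longer called (adjusted p = 0.085). The fall over both mutants, 0.76 with the main probe (adjusted p = 0.0145), became -0.59 and was no longer called either (adjusted p = 0.0578).

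**Figure D2:**
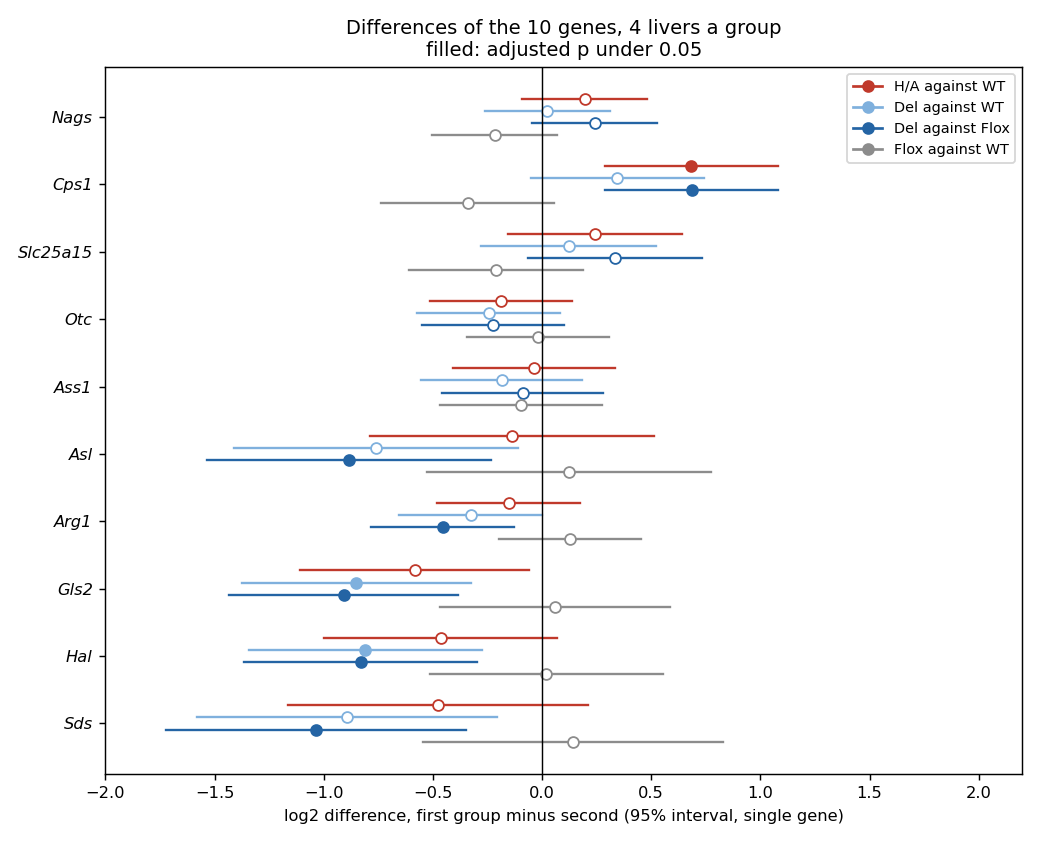
Log2 differences of the 10 genes with 95% intervals in 4 comparisons of 4 livers against 4, filled where the adjusted p was under 0.05. Cps1 was filled to the right of 0 in 2 comparisons, and Asl, Arg1, Gls2, Hal and Sds were filled to the left in Del against Flox.

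The directions over both mutants were the same on each slide for the 5 called genes. Cps1 gave 0.86 within slide 1 (limma adjusted p = 0.0133) and 0.45 within slide 2 (adjusted p = 0.0653). Gls2 gave -0.96 and -0.92 (adjusted p = 0.0113 and 0.00826), and Sds gave -0.94 and -1.002 (adjusted p = 0.0459 and 0.0229). Hal gave -0.85 and -0.75 (adjusted p = 0.0602 and 0.0467), and Arg1 gave -0.29 and -0.45 and was called on neither slide (adjusted p = 0.249 and 0.0572). Cps1 in H/A against WT gave 0.73 and 0.54 and was called on neither slide (adjusted p = 0.11 and 0.279). Slide 1 held 1 Del liver and slide 2 held 1 H/A liver, and in these fits the lone liver is assumed to vary like the other groups. Gls2 in Del against Flox was -1.60 on slide 1, where the 1 Del liver was Del replicate 1, the lowest of all 16 for Gls2 at 9.87. On slide 2, with 3 Del livers, it was -0.76 (adjusted p = 0.0451), and over both slides without Del replicate 1 it was -0.64 (adjusted p = 0.0277).

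With the listed scanner files none of the 10 genes was called in any of these comparisons (0 of 10, limma). The 10 differences in H/A against WT were then all above 0, from 0.01 for Otc to 0.48 for Asl, so 7 of 10 turned sign, and in Del against WT 7 of 10 also turned. Cps1 kept its direction, with 0.35 in H/A against WT (adjusted p = 0.991), 0.43 in Del against Flox (adjusted p = 0.669) and 0.39 over both mutants (adjusted p = 0.627). In Del against Flox the other called genes stayed below 0, with -0.21 for Asl, -0.20 for Arg1, -0.10 for Gls2, -0.05 for Hal and -0.11 for Sds (adjusted p from 0.726 to 0.946). Over both mutants Gls2, Hal and Sds turned to 0.043, 0.079 and 0.14 and Arg1 was -0.01.

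By comparison, H/A against WT held 1 gene of the 10 that rose and 0 that fell, against 7.08% and 2.97% of all genes. The median difference was -0.15 for the 10 genes and -0.09 for all genes. Del against WT held 0 that rose and 2 that fell, against 8.85% and 4.38%, with medians of -0.29 and -0.11. Del against Flox held 1 that rose and 5 that fell, against 16.6% and 18.2%, with medians of -0.34 and -0.14. Del against WT and Del against Flox share the Del livers, and H/A against WT and Del against WT share the WT livers.

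The share of all genes called moved with single livers. In H/A against WT it was 25.5% without WT replicate 2, and 4.61% to 6.67% without WT replicate 1, 3 or 4 or H/A replicate 2, 3 or 4. In Del against WT it was 22.8% without WT replicate 2, and 6.95% to 8.79% without Del replicate 3 or WT replicate 1, 3 or 4. In Del against Flox it was 16.2% without Del replicate 3 and 21% without Flox replicate 1, and over both mutants it stayed between 41.2% and 55.5%.

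The 2 control groups were compared in the same way. Flox against WT gave 0 calls among the 10 genes, where 0.0222% of all genes were called, with a median of 0.00 and differences from -0.34 for Cps1 to 0.14 for Sds. The smallest unadjusted p of the 10 was 0.0863, for Cps1 (limma), and unadjusted p over all genes was not examined. The Cps1 difference between the control groups was -0.68 within slide 1 (interval -1.16 to -0.19) and -0.01 within slide 2.

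Between the mutant groups, H/A against Del gave 0 calls among the 10 genes (limma), where 0.0127% of all genes were called. The smallest unadjusted p of the 10 was 0.059, for Asl (limma), again without a look at all genes. All 10 differences were above 0, with a median of 0.22 against -0.01 over all genes, and ran from 0.06 for Otc to 0.62 for Asl. Within slide 2, where 1 H/A liver stood against 3 Del livers, 7 of the 10 were below 0, from -0.35 for Gls2, so the sign for these genes was not the same on both slides.

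The effects of the alleles were also compared directly, as H/A against WT minus Del against Flox, which share no liver. None of the 10 genes was called (0 of 10, limma, adjusted p from 0.777 to 1.00), where 0.00318% of all genes were called. Asl had the smallest unadjusted p of the 10, 0.105 (limma), and unadjusted p over all genes was not examined here either. The difference of effects was 0.00 for Cps1 (interval -0.56 to 0.56) and 0.74 for Asl (interval -0.17 to 1.66), so for Asl a large difference between the lines was not resolved. The sign of the 2 effects was the same for 10 of 10 genes, and it was the same for 82.2% of all genes.

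**Figure D3:**
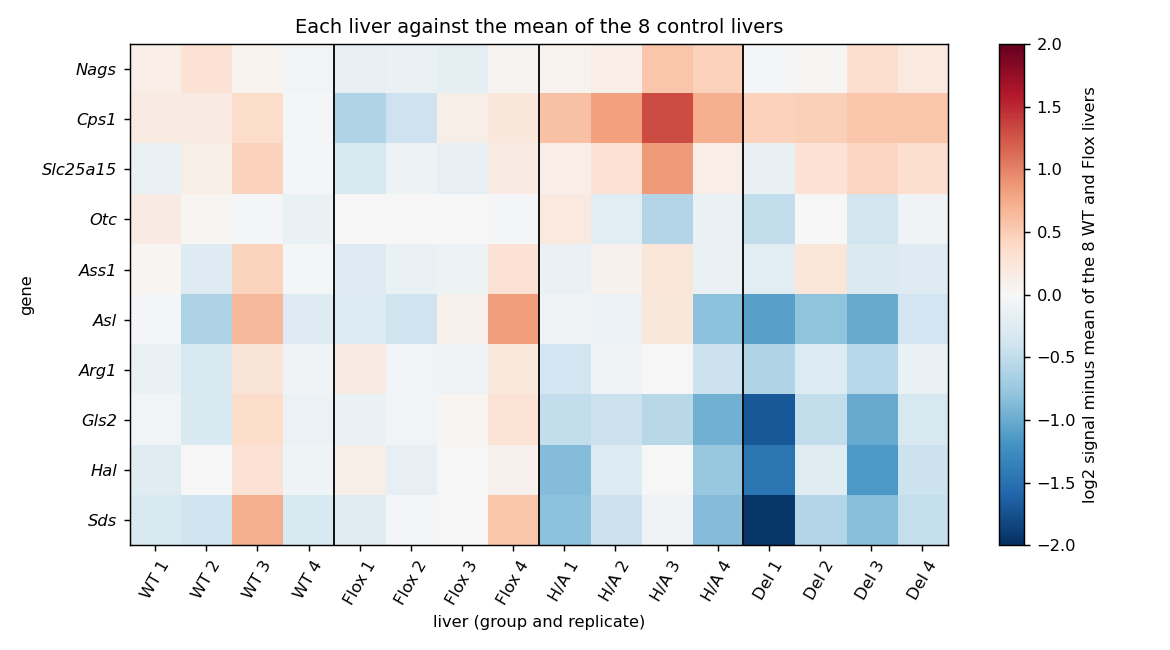
Log2 signal of the 10 genes (rows) in 16 livers (columns), each minus the mean of the 8 WT and Flox livers, from blue (lower) to red (higher). Del replicate 1 was lowest of the Del livers for Gls2, Hal and Sds, and Cps1 was above the control mean in all 8 mutant livers.

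Livers of a genotype differed from each other in several of these genes at once. Del replicate 1 was below its group mean for 10 of 10 genes, by a median of 0.26, and WT replicate 4 was below its group mean for 10 of 10, by a median of 0.13. H/A replicate 3 was above its group mean for 9 of 10 (median 0.33), Flox replicate 4 for 9 of 10 (median 0.26) and WT replicate 3 for 8 of 10 (median 0.34). The same counts were not made over all genes. Del replicate 1 also had the smallest share of spots well above background, 51.63%, where the other arrays had 55.53% to 65.19%. Whether this bears on its values was not tested.

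Gls2, Hal, Sds and Arg1 moved together over the 16 livers. Pearson's r was 0.93 between Gls2 and Sds, 0.89 between Hal and Sds, 0.89 between Arg1 and Hal and 0.89 between Arg1 and Sds, and after removing group means it was 0.88, 0.79, 0.82 and 0.80. Asl was not far from them, with r of 0.84 with Sds, 0.84 with Arg1, 0.79 with Gls2 and 0.70 with Hal. After removing group means these were 0.76, 0.76, 0.72 and 0.50. The usual r between pairs of all genes was not examined. Cps1 had r of -0.43 with Gls2 and -0.23 with Sds over all livers, and 0.31 and 0.58 within groups. Slc25a15 and Sds had r of 0.21 over all livers and 0.87 within groups. Within genotypes these correlations were thus above 0, while the group means of Cps1 and Gls2 differed in opposite directions.

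The genes whose log2 signal was most like a member's over the 16 livers were named for the 6 genes with a call. For Cps1 they were Zswim7 (r = 0.93), Polr1a (0.92) and Gulo (0.92), and for Gls2 they were Thrsp (0.93), Sds (0.93) and Vegfa (0.92). For Sds they were Etnppl (0.93), Gls2 (0.93) and Selenoo (0.91), and for Hal they were Glul (0.92), Arg1 (0.89) and Sds (0.89). For Arg1 they were AI463170 (0.90), Hal (0.89) and Ahcy (0.89), and for Asl they were Ahcy (0.91), Gnmt (0.89) and Upp2 (0.89). Members of the set were therefore among the 3 nearest genes of each other for Gls2, Sds, Hal and Arg1.

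Amino acid breakdown beyond the 10 genes was followed with 51 enzymes, all of them tested. In H/A against WT 0 rose and 3 fell (0% and 5.88%, against 7.08% and 2.97% of all genes), with a median of -0.10. In Del against WT 1 rose and 10 fell (1.96% and 19.6%, against 8.85% and 4.38%). In Del against Flox 2 rose and 14 fell (3.92% and 27.5%, against 16.6% and 18.2%). Over both mutants 3 rose (5.88%, against 21.2% of all genes higher) and 15 fell (29.4%, against 29.2%), with a median of -0.12 against -0.14 over all genes. Ftcd, of a later and not the next step of histidine breakdown than Hal, fell by 0.78 in H/A against WT (adjusted p = 0.006) and by 0.44 in Del against Flox (adjusted p = 0.0379). Haao, of the kynurenine pathway of tryptophan, fell by 0.78 and 0.68 (adjusted p = 0.0215 and 0.0179). Hpd, of tyrosine breakdown, fell by 1.22 in Del against Flox (adjusted p = 0.00756) and gave -0.77 in H/A against WT (adjusted p = 0.0896). Agxt2, a mitochondrial aminotransferase, rose by 0.80 in Del against Flox (adjusted p = 0.00457) and gave 0.47 in H/A (adjusted p = 0.0828).

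**Figure D4:**
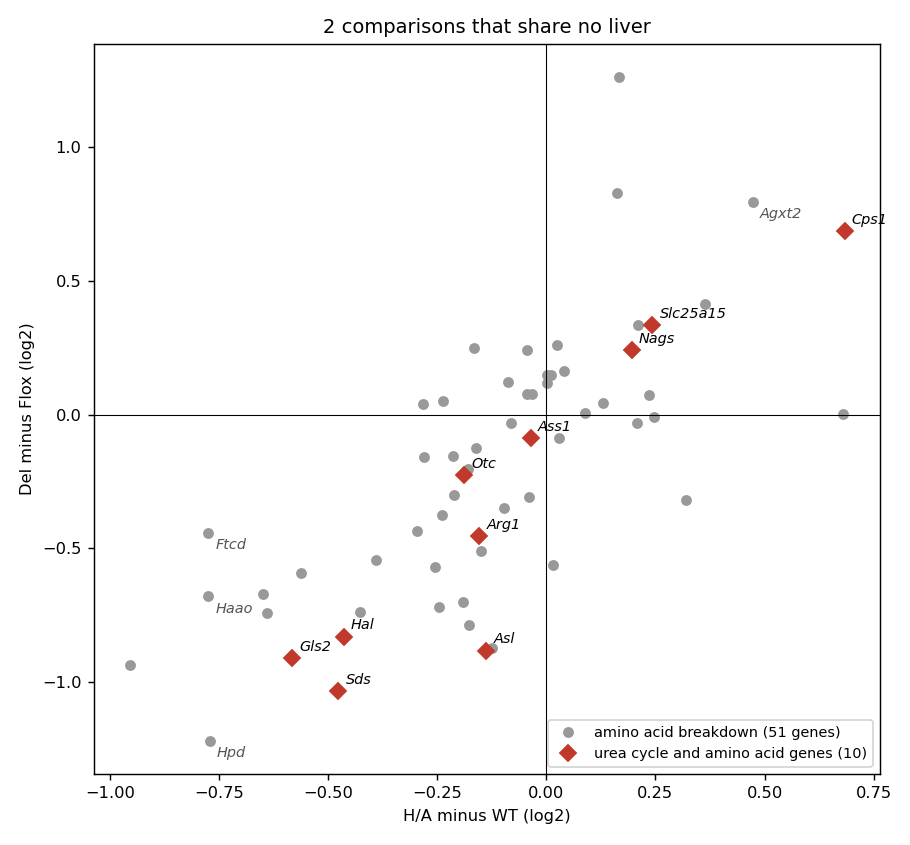
Log2 difference in H/A against WT (x axis) and in Del against Flox (y axis) for the 10 genes (red diamonds) and 51 amino acid breakdown enzymes (grey circles). Cps1 lies farthest to the upper right of the 10, at 0.68 and 0.69, and Sds, Gls2 and Hal lie at lower left.

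Carriers of amino acids and urea cycle intermediates were represented by 15 tested genes of 21. In H/A against WT 2 rose and 2 fell (13.3% each, against 7.08% and 2.97% of all genes), and in Del against WT also 2 and 2 (against 8.85% and 4.38%). In Del against Flox 2 rose and 4 fell (13.3% and 26.7%, against 16.6% and 18.2%), and over both mutants 3 rose and 5 fell (20% and 33.3%, near the 21.2% and 29.2% of all genes). Slc1a4, a carrier of alanine, serine and cysteine, rose by 1.99 in H/A against WT (limma adjusted p = 0.00359) and by 2.49 in Del against Flox (adjusted p = 0.000387). Slc3a2, the heavy chain of several amino acid exchangers, rose by 0.82 and 1.26 (adjusted p = 0.0253 and 0.00109). Slc1a2, a glutamate carrier of pericentral hepatocytes, fell by 0.70 and 0.68 (adjusted p = 0.0224 and 0.0128). Slc38a7, a glutamine carrier, fell by 0.67 in Del against Flox (adjusted p = 0.0106) and gave -0.33 in H/A against WT (adjusted p = 0.184).

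Arginine, ornithine and glutamine are also used outside the cycle, and 17 of 19 genes of those routes were tested. In H/A against WT 2 rose (11.8%, against 7.08% of all genes) and 0 fell (2.97%), and in Del against WT 2 rose and 1 fell (11.8% and 5.88%, against 8.85% and 4.38%). In Del against Flox 4 rose and 2 fell (23.5% and 11.8%, against 16.6% and 18.2%), and over both mutants 4 rose and 6 fell (23.5% and 35.3%, against 21.2% and 29.2%). Sat1, which acetylates polyamines for export or breakdown, rose by 0.88 in H/A against WT (limma adjusted p = 0.00214) and by 1.25 in Del against Flox (adjusted p = 9.99e-05). Oaz1, which restrains the polyamine enzyme ornithine decarboxylase, rose by 0.67 in Del against Flox (adjusted p = 0.00491) and gave 0.41 in H/A against WT (adjusted p = 0.0781). Aldh18a1, of proline and ornithine synthesis, fell by 0.41 over both mutants (adjusted p = 0.0069). It was not called in H/A against WT (-0.45, adjusted p = 0.0653), Del against WT (-0.24, adjusted p = 0.27) or Del against Flox (-0.38, adjusted p = 0.0628). Glul, the pericentral enzyme that captures the ammonia the cycle leaves, was nearest to Hal and fell by 0.79 in Del against WT (adjusted p = 0.0343) and by 0.72 in Del against Flox (adjusted p = 0.0271). In H/A against WT it gave -0.50 and was not called (adjusted p = 0.144). Glul was named after its values were seen.

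Other genes with zoned expression moved in both directions. H/A against WT held 3 rises and 2 falls among 18 further periportal genes tested (16.7% and 11.1%, against 7.08% and 2.97% of all genes), as did Del against WT (against 8.85% and 4.38%). Del against Flox held 3 of each (16.7%, near the 16.6% and 18.2% of all genes), and over both mutants there were 5 and 4 (27.8% and 22.2%, against 21.2% and 29.2%). Aldh1b1, a mitochondrial aldehyde dehydrogenase, rose by 1.28 and 1.35 in H/A against WT and in Del against Flox (limma adjusted p = 0.00568 and 0.00191), Hsd17b13, a lipid droplet protein, by 0.99 and 0.88 (adjusted p = 0.00314 and 0.00305), and Cdh1, E-cadherin, by 1.44 and 2.64 (adjusted p = 0.035 and 0.000514). Cdh1 overlapped in H/A against WT, with WT up to 9.16 and H/A from 8.76. Sult5a1, a sulfotransferase, fell by 3.67 and 3.66 (limma adjusted p = 0.00578 and 0.00274). Its lowest Flox liver, 6.87, was at the level of the highest Del liver, 6.88, so Del and Flox overlapped. Among 17 pericentral genes there were 2 rises and 2 falls in H/A against WT (11.8% each, against 7.08% and 2.97%) and 1 and 4 in Del against WT (5.88% and 23.5%, against 8.85% and 4.38%). There were 3 and 4 in Del against Flox (17.6% and 23.5%, against 16.6% and 18.2%) and 4 and 6 over both mutants (23.5% and 35.3%, against 21.2% and 29.2%). Ahr, the aryl hydrocarbon receptor, rose by 0.96 and 1.15 (adjusted p = 0.00959 and 0.00148), while Cyp1a2 fell by 0.61 and 0.45 (adjusted p = 0.0347 and 0.0485). Gulo, of ascorbate synthesis, rose by 0.58 in Del against Flox (adjusted p = 0.00744).

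Factors known to act on urea cycle and amino acid genes numbered 20, all of them tested. None rose in H/A against WT, Del against WT, Del against Flox or over both mutants (0 of 20 in each, limma), where 7.08%, 8.85%, 16.6% and 21.2% of all genes were higher. The falls numbered 1, 1, 5 and 4 (5%, 5%, 25% and 20%, against 2.97%, 4.38%, 18.2% and 29.2%). Onecut1, a liver transcription factor, fell by 2.42 in H/A against WT (limma adjusted p = 0.0333), fell by 2.74 in Del against WT (adjusted p = 0.0138) and fell by 1.99 in Del against Flox (adjusted p = 0.0336), with overlap between groups in each. Sirt5, the mitochondrial deacylase that acts on the Cps1 protein, fell by 0.37 in Del against Flox (adjusted p = 0.0324). With all its probes averaged, the Sirt5 difference turned sign, to 0.16 above 0 (adjusted p = 0.402). Klf15, a factor that drives amino acid breakdown genes in fasting, fell by 0.41 in Del against Flox (adjusted p = 0.0366), and Trp53 fell by 0.56 (adjusted p = 0.0425). Flox against WT gave 0 calls in each of these 6 lists (limma).

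The labelled tissue held liver RNA throughout. All 10 hepatocyte markers tested, Alb, Ttr and Hnf4a among them, were well above background on 16 arrays. Of these, 0 were called in H/A or Del against WT (limma), where 10.1% and 13.2% of all genes were called. In Del against Flox 1, Apoh, rose (10%, against 16.6% of all genes). The summed linear signal of the 10 markers ranged from 4.204e+05 to 4.486e+05 in WT, 4.102e+05 to 4.659e+05 in Flox, 4.291e+05 to 4.708e+05 in H/A and 4.374e+05 to 4.639e+05 in Del. Macrophage and Kupffer cell markers moved with the mutants. Of these, 8 of 10 rose in H/A against WT (80%, against 7.08% of all genes) and 6 of 10 in Del against WT (60%, against 8.85%). In Del against Flox 6 rose and 1 fell (60% and 10%, against 16.6% and 18.2%). The summed signal of the macrophage markers was 1542 to 2951 in WT, 1927 to 2660 in Flox, 4335 to 9443 in H/A and 3830 to 4656 in Del.

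All 5 markers of dividing cells rose in H/A against WT, Del against WT and Del against Flox, where 7.08%, 8.85% and 16.6% of all genes rose. Sums of the 5 markers were 138.1 to 300.1 in WT, 153.3 to 343.2 in Flox, 613 to 1285 in H/A and 917.5 to 1599 in Del. Of 5 neutrophil markers 2, 1 and 1 rose in the same comparisons (40%, 20% and 20%, against 7.08%, 8.85% and 16.6% of all genes), the last near the share of all genes. Neutrophil sums were 106.7 to 245.7 in WT, 140.8 to 227.9 in Flox, 333.9 to 769.9 in H/A and 296.6 to 338.7 in Del. Of 8 stellate cell markers 1, 1 and 4 rose (12.5%, 12.5% and 50%, against 7.08%, 8.85% and 16.6% of all genes). Stellate sums were 4956 to 7467, 4884 to 5759, 7700 to 8456 and 6997 to 1.003e+04 in the same order of groups.

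The remaining marker lists were summed in the same way. Of 3 erythroid markers tested 1 fell in H/A against WT (33.3%, against 2.97% of all genes). In Del against WT and Del against Flox 0 fell (limma), against 4.38% and 18.2% of all genes. Erythroid sums were 2026 to 2419 in WT, 699.4 to 3137 in Flox, 225.7 to 973.7 in H/A and 567.5 to 1652 in Del. Of 4 pancreatic acinar markers 1 fell in Del against Flox (25%, against 18.2% of all genes), with sums of 219.2 to 309.4, 267 to 351.5, 172.3 to 236.5 and 173.4 to 237.2. Lymphocyte sums were 462 to 587.7, 571.7 to 644.1, 463.3 to 545.4 and 394.6 to 512.7. None of 5 lymphocyte markers was called in these 3 comparisons (limma), where 10.1%, 13.2% and 34.8% of all genes were called. Sinusoidal endothelial sums were 3278 to 3869, 2880 to 3226, 2755 to 3581 and 2500 to 3552, with 1 of 7 lower in Del against Flox (14.3%, near the 18.2% of all genes). Cholangiocyte sums were 140.4 to 377.2, 183.3 to 214, 230.3 to 528.5 and 269.5 to 1034, with 1 of 4 higher in Del against Flox (25%, against 16.6% of all genes). The part of these cells in the differences of Cps1, Gls2, Hal, Sds, Asl and Arg1 was not tested.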

How the data were processed

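Liver RNA of 16 mice was labelled with Cy3 and hybridised to 1-colour Agilent arrays, per the labels, with Feature Extraction 11 and Partek named in the submitters' processing notes. Log2 values, quantile normalised by the authors over the 16 arrays, make up the deposited table used here. The deposited scanner files hold spot intensity values, and served to mark probes well above background and as alternatives.

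Transcript identifiers were paired with gene symbols through RefSeq GRCm38.p6 (36264 of 60037 probes). Probes that 4 or more of the 16 scanner files marked as well above background were kept (37819), and the probe with the highest mean stood for each of 31484 genes. A gene that passed the filter only through the group where it was bright is included, but all 10 genes here passed on 16 arrays.

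Groups came from the labels. All 16 arrays were fitted in 1 model with limma 3.58.1 in R 4.3.3, with Benjamini-Hochberg adjustment over all genes tested, and a call is an adjusted p under 0.05. Intervals are 95% and for single genes. The procedure was tested on simulated data. The number of arrays limits the precision.

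The 10 genes and all lists were chosen with earlier results of these data known. From each list the 4 genes with the smallest p over both mutants are named, and 3 nearest genes for each called member. The alternatives were label-paired and listed scanner files scaled by the 75th percentile, normexp correction with an offset of 50, slide as a block, each slide alone, no filter, the mean of all probes, only the groups compared, array weights, and leaving out each array. One gene that the rule for named genes selected is not reported here.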

Additional observations from a re-analysis of the deposited data

Results flagged for a closer look

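In 2 of 40 groups of 4 livers, 1 liver stood far from the other 3 by the gap between it and its neighbour as a share of the group's range, and chance flags about 1 in 20 such groups. Ass1 was 13.35 in Del replicate 2, above the other Del livers, with a share of 0.88. Sds was 12.74 in WT replicate 3, above the other WT livers, with a share of 0.92.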

How the results depend on the processing

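Between H/A and WT 1 gene of the 10 was called, and 0 with the scanner files as listed, within slide 1 or with only the groups compared. With array weights 2 were called. The share of all genes was 5.8% with only the groups compared and 42.8% with array weights. Between Del and WT 2 were called, and 0 with the label-paired files scaled by the 75th percentile, the listed files, slide 2, no filter or only the groups compared. With array weights 1 was called. The share of all genes was 13.2% with the label-paired files and 7.99% within slide 2. Between Del and Flox 6 were called, 3 with the label-paired files, 0 with the listed files and 2 within slide 2. With normexp, no filter, averaged probes, only the groups compared or array weights 5 were called. The share of all genes was 34.4% with normexp, 33.5% with averaged probes and 34.6% with array weights. Over both mutants 5 were called (with 50.4% of all genes), and 0 with the listed files (with 0.00635%). Leaving out 1 liver gave 0 to 1, 0 to 2, 2 to 6 and 4 to 7 calls in these comparisons, and 0 to 0 for Flox against WT, H/A against Del and the difference of effects. The share of all genes called moved with single livers too, as given above. With the listed files, 5 of the called differences turned sign: Gls2 0.24 and Hal 0.13 in Del against WT, and Gls2 0.043, Hal 0.079 and Sds 0.14 over both mutants. Called or not, 7 of 10 turned in H/A against WT and 6 of 10 over both mutants. Sirt5 turned to 0.16 in Del against Flox and 0.16 over both mutants with all its probes averaged. The cause was not tested. Slides held 1 to 3 livers a group, so fewer samples entered each slide's estimate. Fewer of all genes were called within a slide too, with 1.32% in H/A against WT on slide 1, against 10.1%. On slide 2 it was 12.1% in Del against Flox, against 34.8%. With array weights 13460 genes were called in H/A against WT, against 3166, and without the filter 2461 were. Of all genes, 13.2% were called in Del against WT, and 7.22% without the filter, 9.04% with only the groups compared and 20.3% with array weights. In Del against Flox it was 34.8%, and 33.2% with the label-paired files, 19.3% without the filter and 26% with only the groups compared. With the listed files it was at most 0.0159% in these comparisons. No paired analysis was possible because the labels give no replicate numbers.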
